A study of Saccharomyces cerevisiae with 30 samples.

Results

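Line 8 is 1 of the 8 tetraploid budding yeast lines whose transcripts were compared before and after laboratory evolution, and it is described here by the 3 of 30 arrays that carry evolved 8 against ancestral 8 RNA. The arrays were chosen by their titles, so no measured value entered the choice. Each row of the table of 6377 rows held the log2 ratio of evolved over ancestral signal, and a positive value means more signal from the evolved cells. The comparison asks which transcripts of the evolved clone differ from those of its own ancestor under heat. All tetraploid strains were a/a/α/α Saccharomyces cerevisiae in the W303 background, and SPO11, a gene needed for meiotic recombination, was deleted in ancestral and evolved strains alike with a kanMX6 or cloNAT cassette. The line was passaged from ancestral 8 in rich YPD medium at a mild temperature for 1000 generations, and evolved 8 is a single clone, the fittest of the colonies isolated from its line. For RNA, both strains were grown to log phase in YPD at 36°C, above the temperature of the evolution. The other 7 lines were set up and measured in the same way, and 2 further groups of 3 arrays compared ancestral 4 and evolved 4 with a diploid.

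Budding yeast usually lives with 1 or a pair of chromosome sets. Cells with more sets are larger, segregate their chromosomes less faithfully and are sensitive to heat and other stresses. At raised temperature, yeast cells make more molecular chaperones, the proteins that hold other proteins in or return them to their folded state, and lower the transcripts for ribosome production, which the TORC1 kinase complex and its substrate Sch9 control in response to nutrients.

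The identifiers listed beside the rows could not be used to name genes. Of 6377 identifiers, 5840 matched a current locus tag. Rows listed as genes of 1 kind, however, mostly did not move together over the 30 arrays. The mean correlation between rows was -0.0018 over 117 rows listed as cytosolic ribosomal protein genes, which in yeast rise and fall as 1 group, and 0.0018 over all 5701 complete rows. It was -0.0207 over 26 rows listed as chaperones, -0.0440 over 8 listed as histones and -0.0013 over 31 listed as proteasome subunits. The A and B copies of ribosomal protein genes gave a median correlation of 0.0148 over 45 pairs, and 23 of those were above 0. The exception was the set listed as mitochondrially encoded, at 0.119 over 26 rows that stand together at the start of the table. Rows are therefore numbered by the size of their line 8 mean, as higher row 1 to 10 and lower row 1 to 3, and no gene or function is given to them.

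The 3 arrays of line 8 gave median absolute log2 ratios of 0.117, 0.133 and 0.147, with a mean of 0.132 ± 0.0147 (SD, n = 3). All 3 values were below the line mean of every other line, which ran from 0.154 in line 7 to 0.321 in line 4. The mean over the other 7 lines was 0.206 ± 0.0541 (SD, n = 7 lines), and line 8 minus that mean was -0.0733. An exact permutation test of 1 line against 7 gave a two-sided p of 0.25, and the smallest p that 8 lines allow is 1 in 8, so this design cannot show that line 8 differs in size. Row means of line 8 had an SD of 0.215, also the lowest of the 8 lines, where the others ran from 0.234 to 0.567. The arrays of line 8 correlated with each other at 0.694 to 0.782 across rows. The median SD of a row over the 3 arrays was 0.0803, also the lowest of the 8 lines.

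**Figure D1:**
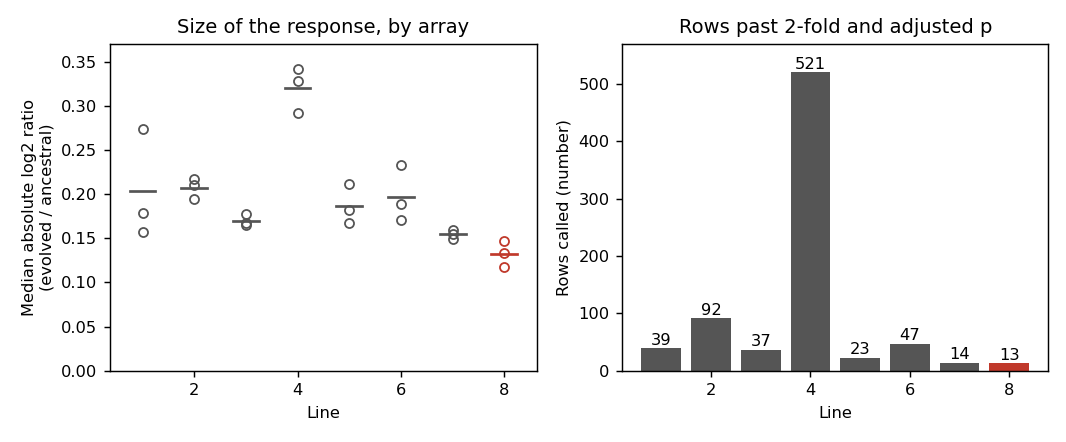
The left panel plots the median absolute log2 ratio of each array (open circles) and the mean of the 3 arrays (bars) against the line number. The right panel plots the number of rows called at 2-fold, and line 8 (red) sits lowest in both, with a mean of 0.132 and 13 rows, beside 0.154 and 14 rows in line 7.

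Calls needed a change of 2-fold or more (1 or more on the log2 scale, up or down) and a Benjamini-Hochberg adjusted p under 0.05 in a limma fit of all 30 arrays. In line 8, 13 of 6359 tested rows were called, or 0.204%, and 10 were higher and 3 lower in the evolved cells. The higher share was thus 76.9%, and after quantile normalization over all arrays, which stretches the narrow distribution of line 8 to that of the other groups, it was 59.7% of 62 rows, 37 higher and 25 lower. No row of 2-fold size missed the adjusted p, so the fold limit set the count. With that limit removed, 1415 rows passed the adjusted p, or 22.3%, and they divided evenly into 712 higher and 703 lower. These changes were small, with a median size of 0.31 on the log2 scale and the smallest at 0.14. Of all tested rows, 80.4% had a mean under 0.25 in size, and 98 rows, or 1.54%, passed the adjusted p at 1.5-fold, 54 of them higher and 44 lower. The 3 arrays are repeat RNA isolations from the cultures, so p-values and SEs cover technical error and neither the spread between cultures of the same strain nor, in comparisons with a mean over lines, the spread between lines.

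The rows on either side of the fold limit had close values in both directions. On the higher side the last 3 called rows had means of 1.03, 1.02 and 1.02, and the first 3 left out had 0.91, 0.89 and 0.88. On the lower side the called rows had means of -1.35, -1.21 and -1.05, and the first 3 left out had -0.99, -0.96 and -0.93. Leaving out 1 array moved higher row 9 to 0.989 (without replicate 1) or 0.996 (without replicate 3), higher row 10 to 0.96 (without replicate 1) and lower row 3 to -0.93 (without replicate 2), all just under 2-fold.

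Higher row 1 had the largest change of line 8, at place 1976 of the table. Its log2 ratios were 2.01, 1.78 and 2.18 on the 3 arrays, a mean of 1.99 ± 0.20 (SD, n = 3), or 3.97-fold (limma adjusted p = 5.52e-15). The other lines were spread on both sides of 0. Lines 2 and 6 had means of 1.05 and 1.14 and were called, lines 3 and 5 had 0.28 and 0.37, and lines 1, 4 and 7 had -0.24, -0.23 and -0.41, all past the adjusted p. The limma difference between line 8 and the mean of the other 7 lines was 1.71 ± 0.09 (SE, adjusted p = 9.67e-13), and line 8 exceeded each of the 7 lines, with the largest of those adjusted p-values at 1.82e-05.

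Higher row 2 was the largest change that no other line shared at the call rule. Its log2 ratios were 1.86, 1.69 and 1.63, with a mean of 1.73 ± 0.12 (SD, n = 3), or 3.31-fold (limma adjusted p = 1.67e-10). The means of the other lines ran from -0.57 in line 3 to 0.72 in line 2, and no array of another line reached the lowest array of line 8. The row was also higher in ancestral 4 over diploid, at 0.71, and in evolved 4 over diploid, at 0.74. Line 8 exceeded the mean of the other lines by 1.66 ± 0.12 (SE, limma adjusted p = 1.13e-09) and each of them singly.

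Higher row 3 was the row with the widest spread over lines. Line 8 gave 1.08, 1.47 and 1.66, with a mean of 1.40 ± 0.29 (SD, n = 3; limma adjusted p = 4.24e-06). Line 7 was called higher too, at 1.14, and line 4 was called lower, at -2.91. Line 8 and line 7 differed by 0.27 (limma adjusted p = 0.452), and line 8 and line 4 by 4.31. The difference from the mean of the other 7 lines was 1.74 ± 0.19 (SE, limma adjusted p = 4.43e-07), and 1.31 without line 4. The means of those 7 lines had an SD of 1.31.

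Higher rows 4 and 5 were also called in line 6, and higher row 6 in lines 2 and 6, as higher row 1 was. Higher row 4 gave 1.44, 0.82 and 1.24 in line 8, a mean of 1.16 ± 0.31 (SD, n = 3; limma adjusted p = 8.08e-05), and line 6 gave 1.13. Higher row 5 gave 1.43, 0.79 and 1.21, a mean of 1.14 ± 0.32 (SD, n = 3), and line 6 gave 1.12. In both, the second array of line 8 was lower than the other arrays of that line. Higher rows 4 and 5 lay 4 places apart in the table and followed each other at r = 0.954 over the 27 arrays of other groups, with no more than 0.0272 between them on any array of line 8, and whether they are separate measurements was not tested. Counted as 1, they leave 12 called rows. Higher row 6 gave 1.13, 1.00 and 1.13, a mean of 1.09 ± 0.08 (SD, n = 3), and was called at 1.24 in line 2 and 1.54 in line 6. For none of these rows was a difference between line 8 and line 6 shown, with limma adjusted p-values of 0.959, 0.972 and 0.111. In line 2, higher rows 4 and 5 had means of 0.98 and 0.94, just under the fold limit. In ancestral 4 over diploid, higher rows 1, 4, 5 and 6 also had positive means, from 0.51 to 1.05.

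Higher rows 7 to 10 all lay within 0.05 of the fold limit. Higher row 7 gave 1.08, 1.06 and 0.99, with a mean of 1.04 ± 0.05 (SD, n = 3), and higher row 10 gave 1.14, 0.98 and 0.94, with a mean of 1.02 ± 0.11 (SD, n = 3). Neither was called in another line, although line 4 had 0.75 and 0.74 and line 7 had 0.50 and 0.59. The pair correlated at 0.888 over the 27 arrays of other groups while lying 1831 places apart. Higher row 8 gave 1.00, 1.06 and 1.01, a mean of 1.03 ± 0.03 (SD, n = 3), and the other lines ran from -0.63 in lines 2 and 4 to 0.49 in line 6. It exceeded the mean of the other lines by 1.16 ± 0.12 (SE, limma adjusted p = 1.95e-07). Higher row 9 gave 1.08, 0.91 and 1.07, a mean of 1.02 ± 0.10 (SD, n = 3), and was called in line 7 as well, at 1.15.

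Lower row 1 was the deepest fall of line 8 and was deeper still in other lines. Line 8 gave -1.31, -1.26 and -1.47, a mean of -1.35 ± 0.11 (SD, n = 3), which is 2.54-fold lower (limma adjusted p = 8.19e-06). Lines 2, 4, 5 and 6 had means of -2.22, -2.07, -2.11 and -2.32 and were called, lines 3 and 7 had -0.78 and -0.96, and line 1 alone was higher, at 0.75. Line 8 differed from the mean of the other lines by 0.04 ± 0.19 (SE, limma adjusted p = 0.900). It lay between the 4 deep lines and lines 3 and 7, differed from each of the 4 deep lines by 0.72 to 0.97, and was not shown to differ from lines 3 and 7 (limma adjusted p = 0.0964 and 0.256). Evolved 4 over diploid had -2.66, and ancestral 4 over diploid had -0.55.

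Lower row 2 was the fall that set line 8 apart. Its log2 ratios were -1.08, -1.49 and -1.07, with a mean of -1.21 ± 0.24 (SD, n = 3), or 2.32-fold lower (limma adjusted p = 3.58e-09). The other 7 lines lay close together, from -0.12 in line 1 to 0.46 in line 4, and every array of line 8 was below every array of the other lines. Line 8 was lower than their mean by 1.37 ± 0.10 (SE, limma adjusted p = 1.40e-09) and lower than each of them. Lower row 3 gave -0.93, -1.29 and -0.94, with a mean of -1.05 ± 0.20 (SD, n = 3). Lines 2 and 6 were close to it, at -1.08 (called) and -0.97, and line 4 was called in the opposite direction, at 1.63.

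**Figure D2:**
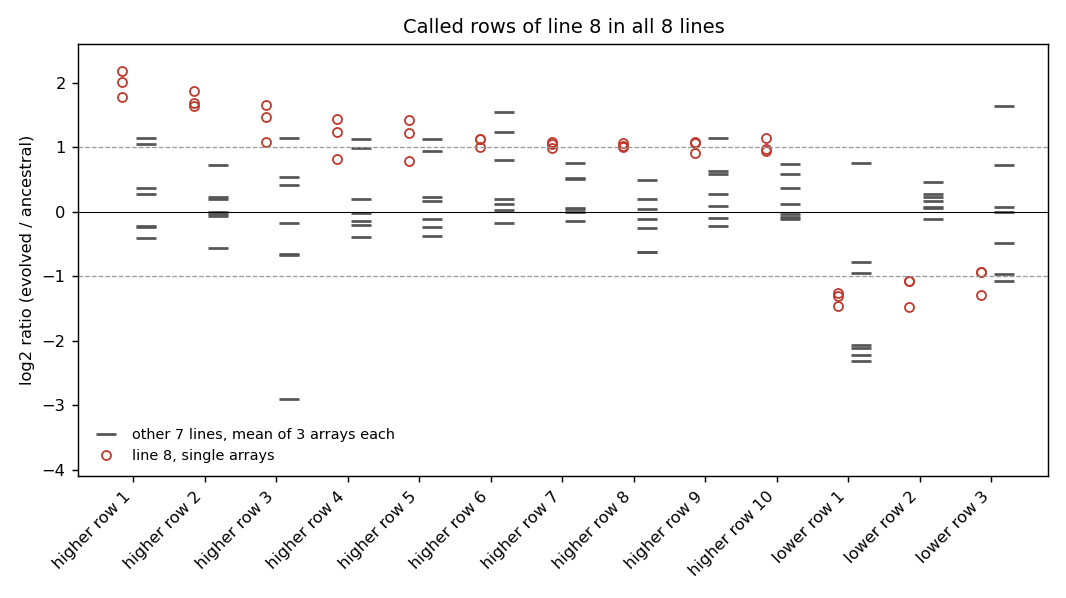
Each of the 13 called rows of line 8 is plotted on the horizontal axis, with log2 ratio of evolved over ancestral on the vertical axis. Red circles are the 3 arrays of line 8, grey bars are the means of the other 7 lines and dashed lines mark 2-fold. In higher rows 1, 2, 7, 8 and 10 and lower row 2 all 3 circles lie outside the range of the bars.

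Recurrence was counted over these 13 rows. In the same direction, 8 were called in at least 1 other line and 5 in none: higher rows 2, 7, 8 and 10 and lower row 2. The share of all rows called in at least 1 other line is not given here, so the 8 cannot be set against it. Line 6, where 0.739% of tested rows were called, shared 5 calls, which are 38.5% of the line 8 list and 10.6% of the 47 in line 6. Line 2 (1.45% called) shared 4, or 30.8% of the line 8 list and 4.35% of its own 92. Line 7 (0.222% called) shared 2 of its 14, line 4 (8.39% called) shared 1 of its 521 with 2 more in the opposite direction, line 5 (0.366% called) shared 1 of its 23, and lines 1 (0.624% called) and 3 (0.584% called) shared 0. No called row kept 1 sign in all 8 lines, which 1.91% of 6070 rows with means in every line did.

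A call in line 8 and none elsewhere is not by itself a difference, so each called row was compared with each other line. Higher rows 1, 2, 8 and 10 and lower row 2 differed from each of the 7 lines at a limma adjusted p under 0.05, where the share of all rows that did so was 31.2%, 36.1%, 30.2%, 57.9%, 35.1%, 18.5% and 32.1% against lines 1 to 7. Of these, higher row 1 was the only one also called in other lines. The called rows were chosen for their size in line 8, which favours such differences. The shares are for each line singly, and the share of all rows that differed from all 7 was not counted. Higher row 7, called in no other line, was not shown to differ from line 4 (difference 0.29, limma adjusted p = 0.0851).

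**Figure D3:**
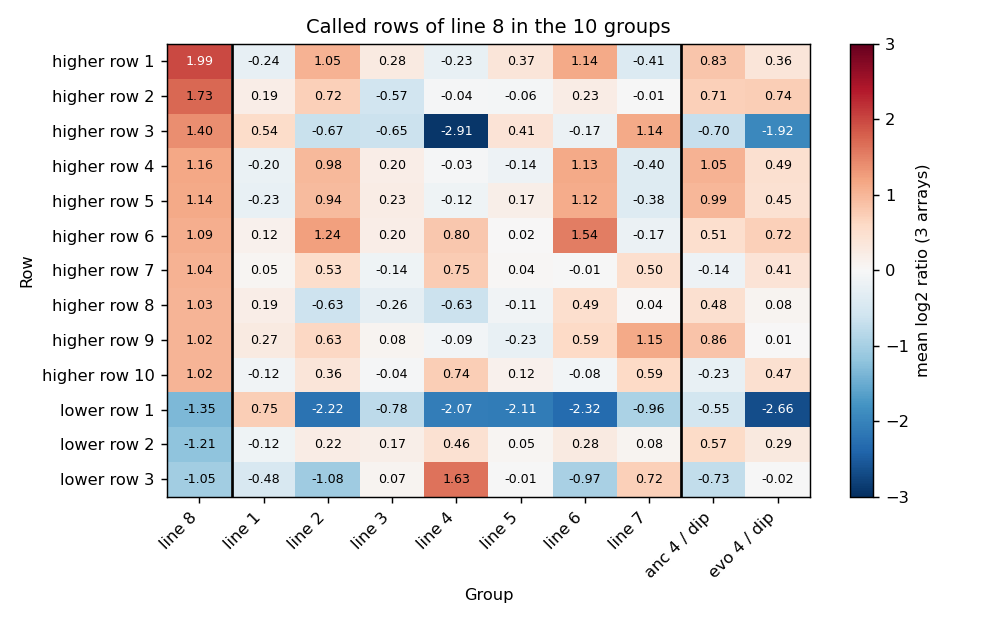
Mean log2 ratios of the 13 called rows (vertical axis) in the 10 groups (horizontal axis, anc 4 / dip and evo 4 / dip being the comparisons with a diploid), with colour running from -3 (blue) to 3 (red). Higher rows 1, 4, 5 and 6 are red in lines 2, 6 and 8, and lower row 1 is blue in all lines but line 1.

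The same uneven recurrence held for the larger list at 1.5-fold. Of the 54 higher rows, 45 (83.3%) passed the adjusted p as higher in line 6, where 19.2% of all rows did, and 43 (79.6%) in line 2, where 24% did. The median of the 54 rows was 0.67 in line 6 and 0.62 in line 2, against -0.01 for all rows in both. In lines 1, 5 and 7 between 9 and 11 of the 54 rows did so (16.7%, 20.4% and 20.4%), near the 20%, 19% and 14.6% of all rows, and in lines 3 and 4 it was 20 rows each, against 17.6% and 35.6%. Of the 44 lower rows, 20 (45.5%) passed as lower in line 6, where 20.8% of all rows did, and 18 (40.9%) in line 2, where 23.9% did. In lines 1, 3, 4, 5 and 7 the share was 29.5%, 9.09%, 11.4%, 13.6% and 4.55%, against 20.6%, 18.8%, 31.1%, 21.6% and 15.1% of all rows. In line 4 the median of the lower rows was 0.39, above the 0.03 of all rows. Counting the 98 rows in both directions, lines 4 and 7 each had 31 that passed the adjusted p with the opposite sign, lines 1, 3 and 5 had 19, 16 and 20, and lines 2 and 6 had 11 each.

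Across all rows, line 8 was most like line 6. The correlation of row means was 0.441 (Spearman's rho 0.416) over 6356 rows, and 0.434 without the called rows, and single arrays of line 8 gave 0.357 to 0.460. Line 2 followed at 0.215, line 3 at 0.0860, line 1 at 0.0504 and line 5 at 0.0200. Lines 4 and 7 had negative values, of -0.0679 and -0.215. The correlation with ancestral 4 over diploid was 0.138 and with evolved 4 over diploid 0.128. These are descriptions over rows that are not independent, and every array of the 8 lines carried the evolved RNA in the same dye, so an effect of the dye on a row would be shared by all lines and cannot be told apart from a shared response. Cells without a usable value, empty or at the floor, numbered 64 in line 8, 58 in line 6 and 66 in line 2, the lines most alike, and 128 in line 3 and 299 to 568 in lines 1, 4, 5 and 7. Line 1 had 568 such cells and line 7 had 302, ancestral 4 over diploid had 691 and evolved 4 over diploid had 464. The part of such cells in the likeness was not tested.

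**Figure D4:**
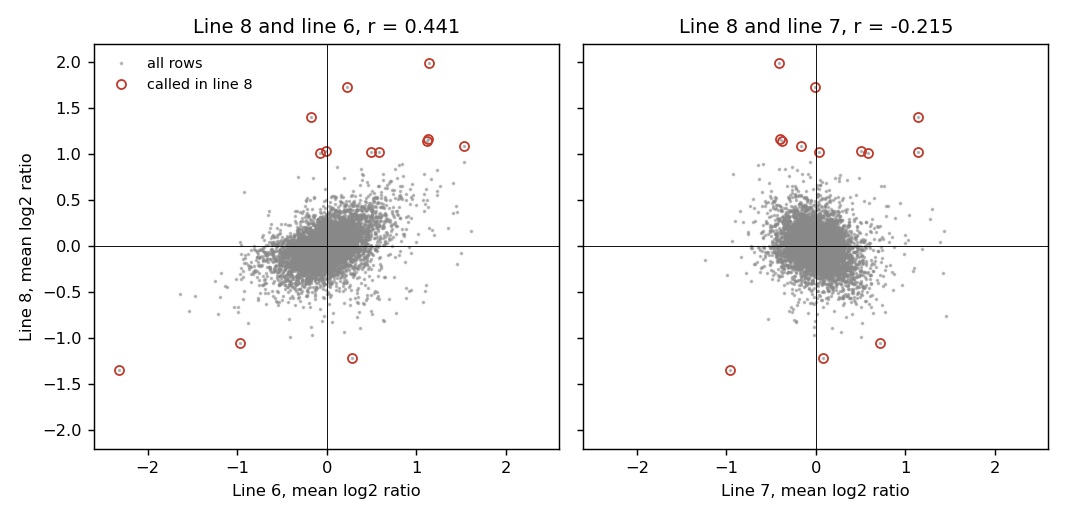
Row means of line 8 (vertical axis, log2 ratio) against those of line 6 (left) and line 7 (right), with the 13 called rows as red circles. The cloud rises with line 6 (r = 0.441) and falls with line 7 (r = -0.215).

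Where line 8 differed from the other lines was tested over 6070 rows as line 8 minus the mean of the other 7. A difference of 2-fold with an adjusted p under 0.05 in limma was called in 24 rows, or 0.395%, with line 8 higher in 6 and lower in 18. Of these, 6 are called rows of line 8 itself: higher rows 1, 2, 3 and 8 and lower rows 2 and 3. Many of the 24 calls rested on line 4. Of the 18 lower rows, 13 were called higher in line 4, as 3.88% of all rows were, and the 18 had a median of 1.97 there and of -0.60 in line 8. Line 4 is part of the mean that picked these rows, so high values there were favoured by the choice. In ancestral 4 over diploid, the same 18 rows had a median of -0.96, and 8 were called lower, as 2.15% of all rows were. Ancestral 4 is also the denominator of the line 4 ratios, so these comparisons are not independent. Without line 4 among the others, 10 rows were called, 4 higher and 6 lower, of which 9 were called with line 4 as well and 5 are called rows of line 8. Of the 6 called rows of line 8 among the 24, lower row 3 was the one lost, with a difference of -1.03 that became -0.76 without line 4.

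By the size of the difference, the 5 highest were higher rows 3, 1, 2 and 8 and a row that scarcely changed in line 8. That row, at place 4248, gave 0.09, 0.05 and 0.31 in line 8 and a mean of -0.88 over the other lines, down to -2.46 in line 4, a difference of 1.03. The lowest was lower row 2, and the next 4 had differences of -1.34, -1.29, -1.20 and -1.19. In those 4 rows line 8 had means of -0.71, -0.45, -0.99 and -0.34, and line 4 had 2.09, 2.77, 1.32 and 2.69. Places 1274, 1275 and 1276, which are neighbours in the table, held 3 of them.

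The values of line 8 went with the listed place of rows or with the ending of their identifiers. The clearest stretch was formed by 75 rows listed on the left arm of chromosome I, at places 29 to 103. There the values went with the ending of the identifier, and neighbouring rows with different endings mostly had opposite signs. The 40 rows with identifiers ending in C had medians of -0.65, -0.52 and -0.34 on the 3 arrays, a mean of -0.50 ± 0.15 (SD, n = 3). The 35 rows ending in W, which lie between them in the table, had medians of 0.16, 0.22 and 0.20, a mean of 0.19 ± 0.03 (SD, n = 3). On each array the median of the C rows lay below that of the W rows. Single rows overlapped, with C row means up to 0.10 and W row means down to -0.04. Of the C rows, 16 passed the adjusted p as lower and 0 as higher, against 11.1% lower among all rows. Of the W rows, 13 passed as higher and 0 as lower, against 11.2% higher. The C rows held 11 of the 44 lower rows at 1.5-fold, which number 33 without them, and 0 of the 13 called rows. In ancestral 4 over diploid the C rows were at 0.47 ± 0.18 and the W rows at -0.37 ± 0.03 (SD, n = 3), the reverse of line 8. The rise of the W rows was not particular to line 8, with 0.16, 0.35 and 0.24 in lines 2, 4 and 6. In lines 1, 3, 5 and 7 the W rows ran from -0.03 to 0.07. The C rows of the other lines ran from -0.16 in line 1 to 0.35 in line 6. The C rows also differed between arrays of 1 group, with medians from -0.39 to 0.42 in line 5 and from -0.55 to 0.13 in line 1. The part of array position in these values was not tested.

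**Figure D5:**
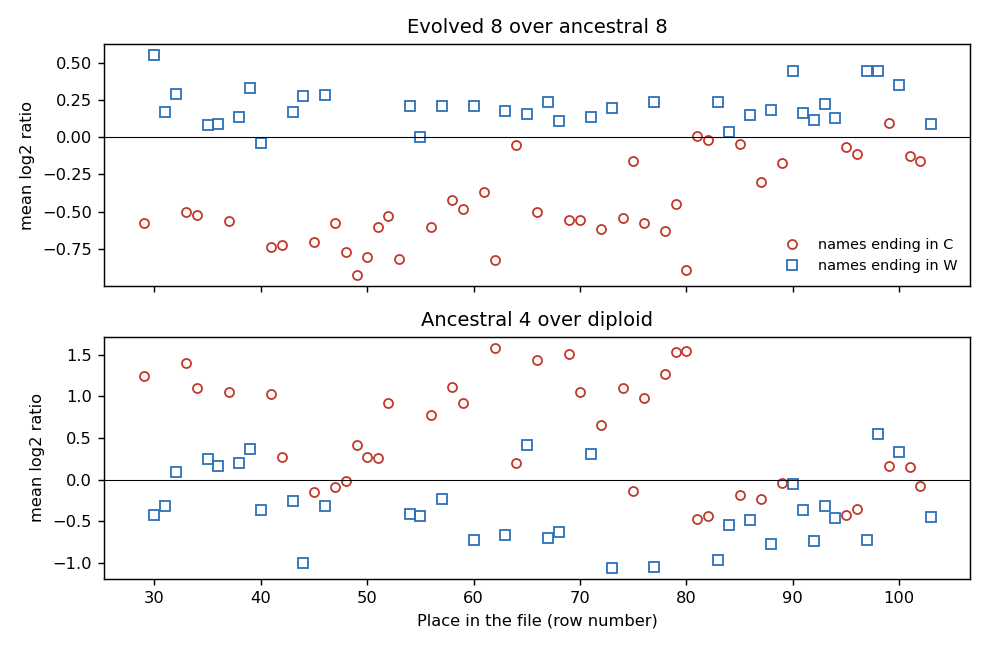
Mean log2 ratio (vertical axes) against row number in the table (horizontal axis) for 75 rows listed on the left arm of chromosome I, in line 8 (top) and in ancestral 4 over diploid (bottom). Rows with identifiers ending in C (red circles) lie mostly below -0.3 in line 8 up to place 80, and those ending in W (blue squares) all lie at -0.04 or above.

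Smaller shifts ran along the whole table. Grouped by listed chromosome, the median of line 8 relative to each array's own median ran from -0.119 ± 0.0044 for 160 rows listed on III to 0.118 ± 0.0117 for 457 rows listed on XVI (SD, n = 3). The 752 rows listed on IV were at -0.0907 ± 0.0021. The shifts of III and XVI were close in size to the median absolute log2 ratio of the line, 0.132, and the median size over the 16 listed chromosomes was 0.0420. For 13 of the 16 the mean shift was larger than its SD over the 3 arrays. For rows listed on XVI, lines 2, 4 and 6 had 0.0949, 0.102 and 0.115, and ancestral 4 over diploid had -0.122. For rows listed on III, lines 2 and 6 had -0.106 and -0.0696, line 7 had 0.140, and lines 1, 3, 4 and 5 ran from -0.0289 to 0.0183. Subtracting a running median over 99 rows from each array left 11 called rows, 9 higher and 2 lower: higher row 7 was then at 0.91 and lower row 3 at -0.91. The 28 rows listed as mitochondrially encoded, which open the table, also shifted in line 8. Their medians were 0.19, 0.28 and 0.21, with 12 past the adjusted p as higher and 3 as lower (11.2% and 11.1% of all rows), and 0 called. The rise was not particular to line 8: the median of their row means was 0.22 in line 8, and 0.20, 0.32 and 0.37 in lines 2, 4 and 6. In lines 1, 3, 5 and 7 it ran from -0.04 to 0.01.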

How the data were processed

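The values are the log2 ratios that the authors deposited for 30 oligonucleotide arrays read in a pair of colours, always with the first of a pair (evolved, for the 8 lines) in the longer-wavelength Alexa Fluor dye. The authors excluded dim spots and applied LOWESS normalization within each array in GeneSpring. No dyes were swapped, scanner signals were not used here and signal over background is unknown. Arrays were grouped by title, 3 in each of 10 groups. Of all cells, 3053 were empty and 84 at the floor of -6.6439 (the next lowest value was -5.7253), and the latter were set to missing.

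Each row with values on at least 2 arrays of a group was tested with limma 3.58.1 (R 4.3.3), in 1 fit of 10 groups, with Benjamini-Hochberg adjustment over all rows tested. Rows were called at an adjusted p under 0.05 and a log2 size of at least 1 (for 1.5-fold, 0.585). Line 8 was compared with the mean of the other 7 lines and with each of them by contrasts in that fit. Named rows are all rows called in line 8, the 3 rows on each side of the fold limit in each direction, and the 5 highest and 5 lowest called differences from the other lines. Median sizes were compared by an exact permutation test over lines. The limma fit was tested on simulated data with independent rows and arrays. Replicate numbers did not pair arrays on average: deviations of same-numbered arrays of line 8 and other groups correlated at -0.0186 on average (27 pairs), and of different numbers at 0.0094. Single pairs ran from -0.518 to 0.577 for the same number and from -0.491 to 0.678 for different numbers. Some arrays of line 8 and of other groups thus shared deviations, while the fit takes arrays as independent. No 2 arrays of line 8 held identical values.

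The lists, the rows described and the alternatives were chosen with earlier results of these data known. Copies of ribosomal protein genes were chosen by listed symbol. Rows listed as genes with the same protein sequence gave a median correlation of -0.193 over 5 pairs, 2 of them above 0. Genes at the listed positions, and their sequences, are not reported for the reason given with the results.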

Additional observations from a re-analysis of the deposited data

Results flagged for a closer look

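Over the 8 lines, 17 measures were examined for 1 line standing apart, by the gap to the nearest line as a share of the whole range, against Dixon's critical value for 8 values. Chance passes about 1 in 20 independent measures, a rate that does not apply here, since the rows were chosen for their size in line 8 and several measures overlap. Of the 17, 4 passed. Lower row 2 had line 8 apart, at a share of 0.652, which is a description of a row chosen for its line 8 value. The other 3, all measures of response size, had line 4 apart: the median absolute log2 ratio (0.602), the number of called rows (0.844) and the SD of row means (0.617).

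Line 8 differed from the mean of the other 7 lines by at least 2-fold, at a limma adjusted p under 0.05, in 6 of its called rows. The differences were 1.71 for higher row 1, 1.66 for higher row 2, 1.74 for higher row 3, 1.16 for higher row 8, -1.37 for lower row 2 and -1.03 for lower row 3. Without line 4 among the others, the first 5 stayed called, and lower row 3 was at -0.76, under 2-fold. The test does not include the spread between the other lines, whose means had an SD of 1.31 in higher row 3, 0.96 in lower row 3 and 0.19 in lower row 2.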

How the results depend on the processing

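Of 221 alternative values over 19 results, 187 were classed as unchanged. That class held 146 values that came almost all from refits of the called rows. It also held counts that moved, such as 24 to 36. For line 8, the count of 13 called rows became 62 after quantile normalization, 1415 with no fold minimum and 98 at 1.5-fold. A t-test of the line 8 arrays against 0 called 8 rows at 2-fold and the methods' threshold of 0.005, taken as unadjusted. After Benjamini-Hochberg adjustment it called 0, although 2005 rows had an unadjusted p under 0.05, and limma had 2158. Leaving out 1 array gave 13 to 15 rows. For line 8 minus the mean of the other 7 lines, the count of 24 became 84 after quantile normalization, 2030 with no fold minimum, 207 at 1.5-fold and 10 without line 4; leaving out another line or 1 array of line 8 gave 19 to 36. With the replicate number as a block, though the numbers did not pair arrays on average, 13 rows were called in line 8 and 23 in the difference. The lower size of line 8 went from -0.0733 to no difference (median absolute log2 ratio 0.209, difference 7.74e-06) after quantile normalization, which gives every array the same distribution. In all 13 called rows the sign held under every alternative, and all 13 stayed called after centring, quantile normalization, the block, a robust variance prior, with floor cells kept, with values needed on all 3 arrays and with line 8 fitted alone. Signal over background and spread between cultures are unknown, which limits the precision of rows near the fold limit.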
